A study of Mus musculus and Meriones unguiculatus with 4 samples.

Results

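The genes described here encode the extracellular matrix of the tooth germ, that is, the basement membrane under the dental epithelium and the interstitial matrix of the neighbouring mesenchyme. They were taken as a fixed list of 41 genes by symbol, with case ignored, where the symbol occurred once in the mouse table and once in the gerbil table. Of the 41 genes, 36 met that rule and all 36 passed the filter on low values, out of 10327 genes kept in all. The other 5 (Lama5, Nid1, Col4a5, Col4a6 and Col7a1) did not meet it and have no difference between species here. The groups were the gerbil (Meriones unguiculatus) enamel knot region at embryonic day 15 and the mouse enamel knot region at embryonic day 13, both wild type, with 2 libraries each. Per the labels, the region was laser-microdissected from fixed, frozen-sectioned mandibular tooth germs. How many animals each library holds is not stated in the labels.

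A basement membrane is a thin sheet built of a laminin network and a type IV collagen network, bridged by nidogens and by the proteoglycans perlecan and agrin. It separates the inner dental epithelium, in which the enamel knot lies as a signalling centre, from the dental papilla, whose cells lay down fibrillar collagens, fibronectin, tenascin C and small proteoglycans. Both compartments change as a tooth germ folds to form cusps, and in mouse the interstitial matrix genes are mainly products of mesenchymal cells.

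Levels are the authors' TPM (gerbil) and FPKM (mouse) values rescaled to a sum of 1000000 per library over the 13321 genes matched by symbol. Both units are per transcript length as the authors computed them, but a trend with length that differed between the tables remained, so levels of genes of unequal length are set side by side only as a description within a library. The authors normalized the 2 tables separately, so no test was run across them, and every level set across species carries that limit. On the log2(level + 1) scale, after a trend with transcript length had been removed from each library, a gene was called higher in gerbil or in mouse where the nearest libraries of the 2 species were separated by 2-fold or more. A difference on that scale understates the change of a gene at a low level. The libraries are named E23 and E21 (gerbil) and SEK and PEK (mouse) after their columns, and the labels do not explain these names. Should the names mark separate stages or parts of the tooth germ, E23 and E21 would not be replicates, nor would SEK and PEK, and the SE values would carry that difference too. Depth is unknown for mouse and was not analysed here for gerbil, so no counting error is given. In bulk samples, fewer cells of a type and less RNA per cell cannot be told apart.

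All 10 dental epithelium markers on the list used here were above 0 in the 4 libraries, with summed levels of 8688 and 9869 in gerbil E23 and E21 and of 8480 and 5707 in mouse SEK and PEK. The labels call the samples epithelial cells, yet mesenchyme markers were present too. Their 15 matched genes summed to 996 and 941 in gerbil E23 and E21, against 1745 and 2138 in mouse SEK and PEK, and Meox2 was listed at 0 in gerbil E21. Of the 13 mesenchyme markers kept, 0 were called higher in gerbil and 5 higher in mouse, beside 13.5% and 15.0% of all genes kept. Their median difference was -1.45 on the log2 scale. The 11 matched enamel knot markers were above 0 throughout, summing to 1757 and 1675 in gerbil E23 and E21 and to 2847 and 4500 in mouse SEK and PEK. The part of tissue make-up in the matrix results below was not tested.

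Matrix transcripts made up more of the gerbil libraries than of the mouse libraries. The 36 measured genes summed to 10605 and 9538 in gerbil E23 and E21, against 2608 and 3184 in mouse SEK and PEK, on levels without the length correction. On those levels both gerbil libraries lay above both mouse libraries for 30 of the 36 genes, while 6 overlapped (Lamb2, Lamb3, Col6a3, Bgn, Fbln1 and Sdc1). The same separation toward gerbil was seen for 52.1% of all genes kept, and that toward mouse for 26.7%. Unless stated otherwise, transcript length here is the exon union, that is, all exons of a gene merged. Matrix genes are long by it, with a median of 6027 bases against 3381 bases over all genes. Of the 36, 29 were longer than the median gene. Over all genes, the uncorrected difference between gerbil and mouse increased with transcript length, reaching a median of 1.43 (log2) in the longest 1032 genes, which include 13 of the 36. After the length trend was removed, 6 of the 36 were called higher in gerbil and 0 higher in mouse, while 13.5% of all genes were called higher in gerbil and 15.0% higher in mouse. The 6 are 16.7% of the measured members, close to the gerbil background. The median log2 difference of the 36 was 0.61, against -0.01 over all genes. Without the length correction the counts were 13 and 0, beside backgrounds of 18.5% and 19.5%, and the median was 1.50. Without centring as well, the median of all genes moved to 0.61, that of the 36 genes was 2.12, and 21 were called higher in gerbil beside a background of 29.4%.

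**Figure D1:**
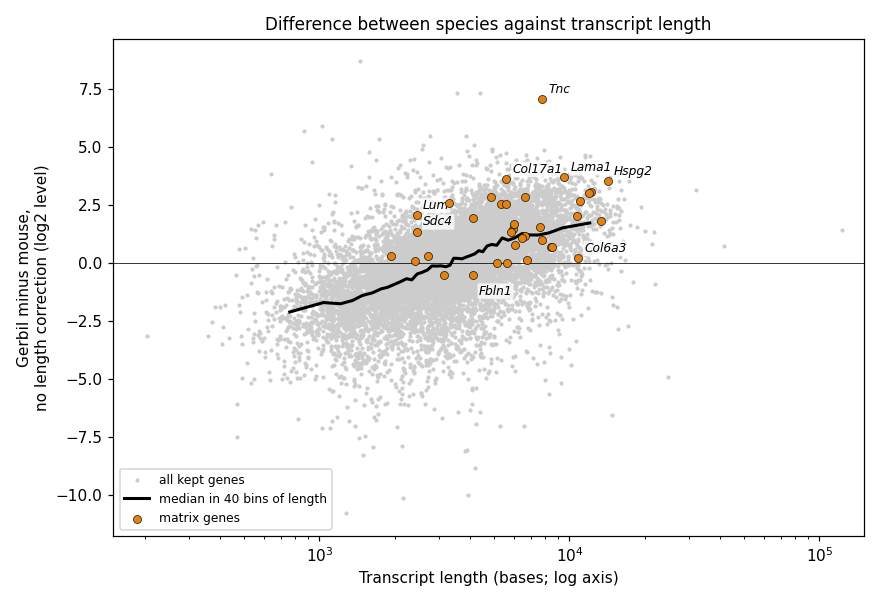
Gerbil minus mouse log2 level without the length correction (y axis) against transcript length in bases (x axis, log scale) for all 10327 kept genes (grey) and the 36 matrix genes (orange), with the median in 40 bins of length as a line. Most matrix genes sit at the long end, where the line lies above 0, and Tnc stands far above the line at 7.06.

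**Figure D2:**
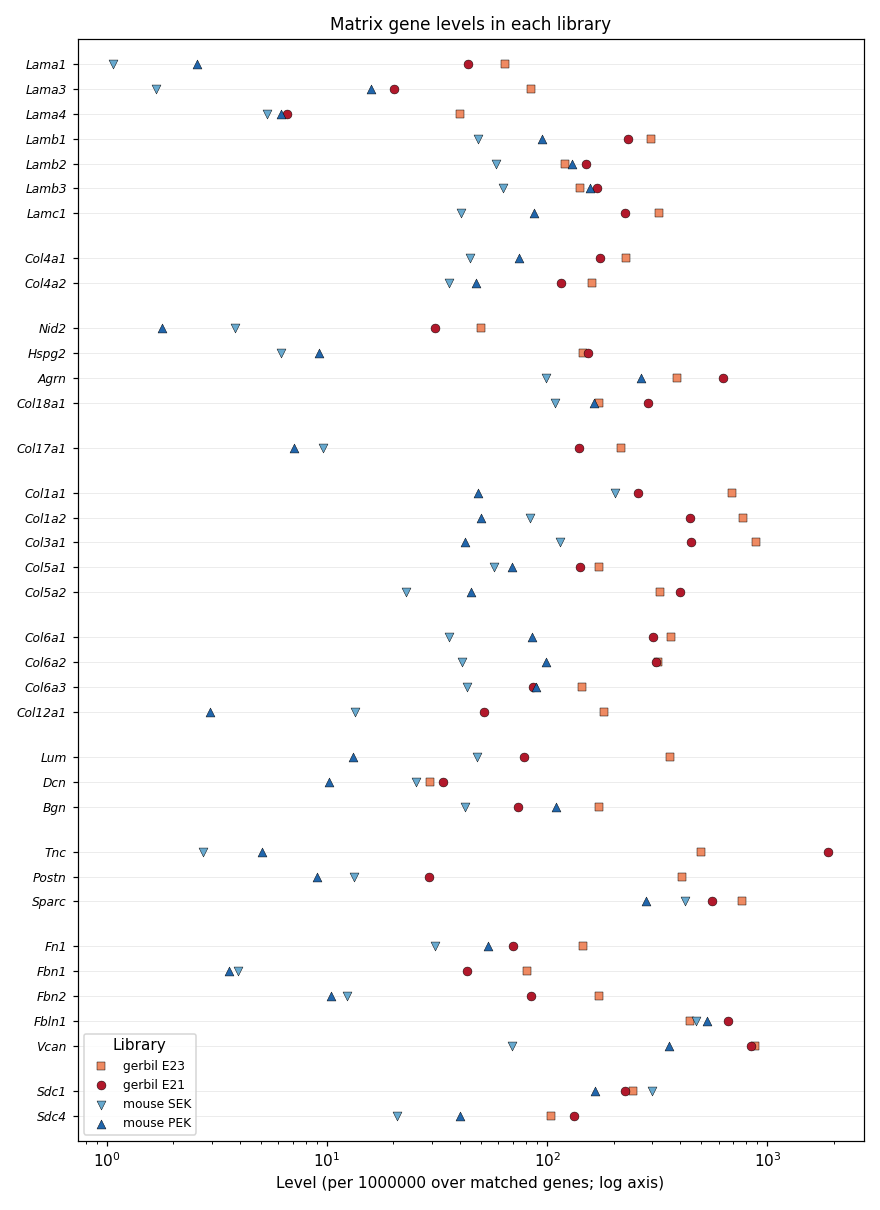
Level of each of the 36 matrix genes in each library (x axis, per 1000000 over matched genes, log scale, without length correction), grouped by role from laminins at the top to syndecans at the bottom. Tnc, Hspg2, Col17a1 and Lama1 show the widest gaps between the gerbil and the mouse libraries among genes called higher in gerbil.

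Tenascin C stood out among the matricellular proteins, which modulate adhesion rather than bear load. Tnc, which encodes tenascin C, was at 500.3 and 1881 in gerbil E23 and E21 and at 2.72 and 5.05 in mouse SEK and PEK. The species did not overlap, and the 2 gerbil libraries themselves differed by 1.78 on the corrected log2 scale, with E21 the higher. The corrected log2 difference was 5.76 ± 0.89 (SE, n = 2 each), a 54.4-fold difference, and it was 7.06 without the length correction. Tnc was the only member still called when a 4-fold gap was asked for. In the mouse table the gene (ENSMUSG00000028364) spans positions 63959785 to 64047015 of chromosome 4 in GRCm38. Postn, which encodes periostin, a matrix protein of fibrous tissues, was at 409 and 29.0 in gerbil E23 and E21 and at 13.2 and 8.95 in mouse SEK and PEK. It was high in 1 gerbil library, and its difference of 2.72 ± 1.99 was not called. Sparc, encoding a collagen-binding glycoprotein also called osteonectin, was at 768 and 562 in gerbil E23 and E21 and at 423 and 280.3 in mouse SEK and PEK (0.60 ± 0.42, not called).

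Because the Tnc difference was the widest of the list, the 250 bases before its most upstream RefSeq start in mouse are shown (GRCm38.p6, chr4:64047016-64047265, minus strand). They are followed by those of Col1a2 (chr6:4505368-4505617, plus strand) and Col3a1 (chr1:45311288-45311537, plus strand), fibrillar collagen genes with levels above those of the other library in both gerbil E23 and mouse SEK. Capitals mark the TATA box letters TATAAA, the CAAT box letters CCAAT and the GC box letters GGGCGG, searched on both strands.
Tnc: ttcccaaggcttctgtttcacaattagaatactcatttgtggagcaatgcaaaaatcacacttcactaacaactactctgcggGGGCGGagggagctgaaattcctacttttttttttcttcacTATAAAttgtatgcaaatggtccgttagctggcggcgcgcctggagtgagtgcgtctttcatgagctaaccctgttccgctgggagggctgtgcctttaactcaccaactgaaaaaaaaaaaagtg
Col1a2: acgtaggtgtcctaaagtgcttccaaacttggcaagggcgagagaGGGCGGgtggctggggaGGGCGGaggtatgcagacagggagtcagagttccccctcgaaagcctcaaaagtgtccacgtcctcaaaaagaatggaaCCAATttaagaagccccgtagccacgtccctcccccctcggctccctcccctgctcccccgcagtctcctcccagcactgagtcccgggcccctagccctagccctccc
Col3a1: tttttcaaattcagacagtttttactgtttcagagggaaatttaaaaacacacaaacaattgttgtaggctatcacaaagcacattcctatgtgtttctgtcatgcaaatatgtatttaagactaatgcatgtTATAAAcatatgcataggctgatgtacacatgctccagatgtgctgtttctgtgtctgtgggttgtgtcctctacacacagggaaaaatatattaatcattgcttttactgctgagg
The Tnc window held TATAAA at 126 bases and GGGCGG at 167 bases before the start. Col3a1 held TATAAA at 117 bases before its start, and Col1a2 held GGGCGG at 188 and 205 bases and CCAAT at 109 bases. TATAAA was found in 12.4%, CCAAT in 33.8% and GGGCGG in 32.7% of all 32851 promoter windows of that length in the RefSeq table. A match is a run of letters and not a shown binding site.

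Laminins, the trimers that start basement membrane assembly, are given chain by chain. Lama1, encoding the alpha 1 chain of laminin-111, was at 64.5 and 43.7 in gerbil E23 and E21 and at 1.07 and 2.56 in mouse SEK and PEK. The species did not overlap, and the corrected log2 difference was 2.11 ± 0.31 (3.70 without the length correction). Lama1 (ENSMUSG00000032796) lies at positions 67697265 to 67822645 of chromosome 17 in the same build, which holds for all gene positions given here. It was the 1 laminin of 7 that was called (14.3%, close to the 13.5% of all genes called higher in gerbil). Lamb1 and Lamc1, which encode the beta and gamma chains shared by most epithelial laminins, were far above Lama1 in level. Lamb1 was at 297 and 234 in gerbil E23 and E21 and at 48.6 and 94.4 in mouse SEK and PEK, and its corrected difference was 0.31 ± 0.28. For Lamc1 the levels were 322 and 225 in gerbil E23 and E21 and 40.4 and 87.0 in mouse SEK and PEK (0.28 ± 0.37). Neither was called, with or without the length correction (1.33 and 1.55 without it).

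The products of Lama3 and Lamb3 are chains of laminin-332, which anchors basal epithelium through hemidesmosomes. Lama3 was at 84.2 and 20.1 in gerbil E23 and E21 and at 1.67 and 15.8 in mouse SEK and PEK. It was high in 1 gerbil library and low in 1 mouse library, and its difference of 0.42 ± 1.39 was not called. Lamb3 was at 141 and 169 in gerbil E23 and E21 and at 63.0 and 156 in mouse SEK and PEK, so the species overlapped (-0.77 ± 0.39, and 0.02 without the length correction). Lamb2, encoding a beta chain found in mature basement membranes, was at 120.4 and 150.1 in gerbil E23 and E21 and at 58.5 and 130.0 in mouse SEK and PEK (-1.01 ± 0.31). Its mouse locus also spans the neighbouring gene Usp19 on the same strand, so the mouse value is uncertain. Lama4, whose alpha 4 chain is a component of vascular basement membranes, was at 40.1 and 6.56 in gerbil E23 and E21 and at 5.35 and 6.17 in mouse SEK and PEK (-0.27 ± 1.28).

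Type IV collagen, the network-forming collagen of basement membranes, gave no call. Col4a1 was at 227 and 174 in gerbil E23 and E21 and at 44.7 and 74.1 in mouse SEK and PEK. Col4a2 was at 159.5 and 116 in gerbil E23 and E21 and at 35.8 and 47.2 in mouse SEK and PEK. These levels did not overlap, but the corrected differences were -0.11 ± 0.20 and -0.19 ± 0.25, against 1.15 and 1.09 without the length correction, and neither scale gave a call. With neither centring nor length correction both were called higher in gerbil, at 1.77 and 1.70. The mouse genes are neighbours read in opposite directions on chromosome 8. Their RefSeq starts lie 22 bases apart counting both, at 11312826 on the minus strand for Col4a1 and at 11312805 on the plus strand for Col4a2. The sequence around both starts (GRCm38.p6, chr8:11312801-11312830, plus strand) is shown with the bases from one start to the other in capitals.
Col4a1 and Col4a2 starts: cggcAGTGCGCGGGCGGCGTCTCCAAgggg

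Among the linkers and proteoglycans of the basement membrane, perlecan was higher in gerbil. Hspg2, which encodes perlecan, was at 146 and 154 in gerbil E23 and E21 and at 6.15 and 9.23 in mouse SEK and PEK. The groups did not overlap and the libraries of each species were close together, with a corrected log2 difference of 1.87 ± 0.17 (3.53 without the length correction). Hspg2 (ENSMUSG00000028763) spans 137468769 to 137570632 of chromosome 4. Nid2, encoding the laminin-binding linker nidogen 2, was at 50.2 and 31.0 in gerbil E23 and E21 and at 3.83 and 1.77 in mouse SEK and PEK. Its difference of 2.04 ± 0.79 fell just short of a call, since the nearest libraries lay 0.97 apart, and it was called without the length correction (2.85). Agrn, encoding the heparan sulphate proteoglycan agrin, was at 387 and 631 in gerbil E23 and E21 and at 99.2 and 267 in mouse SEK and PEK (-0.32 ± 0.45, and 0.98 without the length correction). Col18a1, whose product is the precursor of endostatin, was at 173 and 287 in gerbil E23 and E21 and at 109 and 163 in mouse SEK and PEK (-1.11 ± 0.33, and 0.12 without the correction). The differences of both these genes changed sign with the correction, and neither was called. Over the 13 measured laminins, type IV collagens, linkers and proteoglycans, 2 (15.4%) were called higher in gerbil, close to the 13.5% of all genes. Their median difference was -0.11 (1.15 without the length correction).

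The hemidesmosome collagen was higher in gerbil. Col17a1, which encodes a transmembrane collagen that ties basal keratinocytes to laminin-332, was at 217 and 139 in gerbil E23 and E21 and at 9.60 and 7.11 in mouse SEK and PEK. The species did not overlap, and the corrected log2 difference was 2.60 ± 0.60 (3.63 without the length correction), a 6.07-fold difference. Col17a1 (ENSMUSG00000025064) spans 47646344 to 47692094 of chromosome 19. Itgb4, the hemidesmosomal integrin gene, is not a member and was looked at after the Col17a1 values were seen. Itgb4 was at 76.4 and 92.5 in gerbil E23 and E21 and at 21.9 and 51.3 in mouse SEK and PEK, without overlap. It was not called with the length correction (-0.56 ± 0.31) or without it (0.68), and the sign changed.

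For fibrillar collagens, the tensile fibres of connective tissue, uncorrected levels did not overlap, gerbil being above mouse for all 5 genes. The same separation was seen for 52.1% of all genes kept. With the length correction 1 of 5 was called higher in gerbil, beside 13.5% of all genes. Col5a2, encoding a chain of type V collagen, which regulates fibril diameter, was at 327 and 399 in gerbil E23 and E21 and at 22.8 and 45.0 in mouse SEK and PEK (1.58 ± 0.20, and 2.84 without the length correction). Col5a2 (ENSMUSG00000026042) spans 45374255 to 45503282 of chromosome 1. Its partner chain gene Col5a1 was at 171 and 140.3 in gerbil E23 and E21 and at 57.1 and 69.3 in mouse SEK and PEK, and its difference was -0.75 ± 0.30 (0.67 without the correction). Col1a1, a type I collagen gene, was at 694 and 257 in gerbil E23 and E21 and at 204 and 48.3 in mouse SEK and PEK (0.43 ± 1.52). Col1a2, for the other type I chain, was at 779 and 444 in gerbil E23 and E21 and at 83.1 and 49.9 in mouse SEK and PEK (1.54 ± 0.81). Col3a1, a type III collagen gene, was at 888 and 448 in gerbil E23 and E21 and at 114 and 42.4 in mouse SEK and PEK (1.52 ± 1.13). For these 3 genes the 2 libraries of a species differed by 0.82 to 2.63 on the corrected log2 scale. Without the length correction Col1a2 (2.56) and Col3a1 (2.54) were called higher in gerbil.

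Beaded-filament collagen genes gave no call. Col6a1, encoding an alpha chain of type VI collagen, was at 364 and 302 in gerbil E23 and E21 and at 35.6 and 85.3 in mouse SEK and PEK, and its nearest libraries lay 0.95 apart (1.55 ± 0.46). Col6a2 was at 317 and 311 in gerbil E23 and E21 and at 41.0 and 98.8 in mouse SEK and PEK (0.64 ± 0.33). Col6a3, for the chain with the longest transcript of the 3, was at 144 and 85.9 in gerbil E23 and E21 and at 43.3 and 88.6 in mouse SEK and PEK (-1.41 ± 0.42). The Col6a3 difference was 0.22 without the length correction, while a pseudocount of 0.1 in place of 1 made it a call higher in mouse. Col12a1, encoding a collagen that decorates fibril surfaces, was at 181 and 51.4 in gerbil E23 and E21 and at 13.5 and 2.93 in mouse SEK and PEK (1.43 ± 1.66). Without the length correction Col6a1 (1.95), Col6a2 (1.67) and Col12a1 (3.08) were called higher in gerbil.

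Small leucine-rich proteoglycans, which bind collagen fibrils, were not called. Lum (lumican) was at 360 and 78.8 in gerbil E23 and E21 and at 47.9 and 13.2 in mouse SEK and PEK (2.53 ± 1.42). Dcn (decorin) was at 29.4 and 33.5 in gerbil E23 and E21 and at 25.2 and 10.2 in mouse SEK and PEK (1.21 ± 0.51). Bgn (biglycan) overlapped between species, at 171 and 73.3 in gerbil E23 and E21 and at 42.3 and 109 in mouse SEK and PEK (0.62 ± 0.96).

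Fibronectin, the fibrillins, fibulin 1 and versican, which form the provisional and elastic parts of the matrix, were not called with the length correction. Fn1, the fibronectin gene, was at 146 and 70.2 in gerbil E23 and E21 and at 30.9 and 53.5 in mouse SEK and PEK (-0.76 ± 0.56, and 0.68 without the correction). Vcan, whose product is a large hyaluronan-binding proteoglycan, was among the most abundant members at 881 and 842 in gerbil E23 and E21, and stood at 69.0 and 358 in mouse SEK and PEK (0.17 ± 0.76). Within mouse, the 2 libraries were far apart for Vcan. Fbln1 was the most abundant member in both mouse libraries, at 446 and 664 in gerbil E23 and E21 and at 476 and 534 in mouse SEK and PEK, so the species overlapped (-0.91 ± 0.28). The microfibril gene Fbn1 was at 80.9 and 43.3 in gerbil E23 and E21 and at 3.95 and 3.58 in mouse SEK and PEK (1.39 ± 0.69), and Fbn2 was at 171 and 84.4 in gerbil E23 and E21 and at 12.3 and 10.5 in mouse SEK and PEK (1.05 ± 0.76). Both were called with levels left uncorrected for length (3.05 and 2.68, higher in gerbil) and not on the corrected scale.

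Syndecans, the transmembrane proteoglycans that serve as matrix and growth factor coreceptors, split. Sdc4 was at 104 and 132 in gerbil E23 and E21 and at 20.8 and 40.3 in mouse SEK and PEK. It was called higher in gerbil with the length correction (1.80 ± 0.52) and not without it (1.36), and it was the called member nearest to the threshold, with 1.17 between its nearest libraries. Sdc4 (ENSMUSG00000017009) spans 164424247 to 164443887 of chromosome 2. Sdc1, known in mouse from the condensing dental mesenchyme and from epithelium, was at 246 and 225 in gerbil E23 and E21 and at 300.1 and 165 in mouse SEK and PEK (-0.42 ± 0.49).

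**Figure D3:**
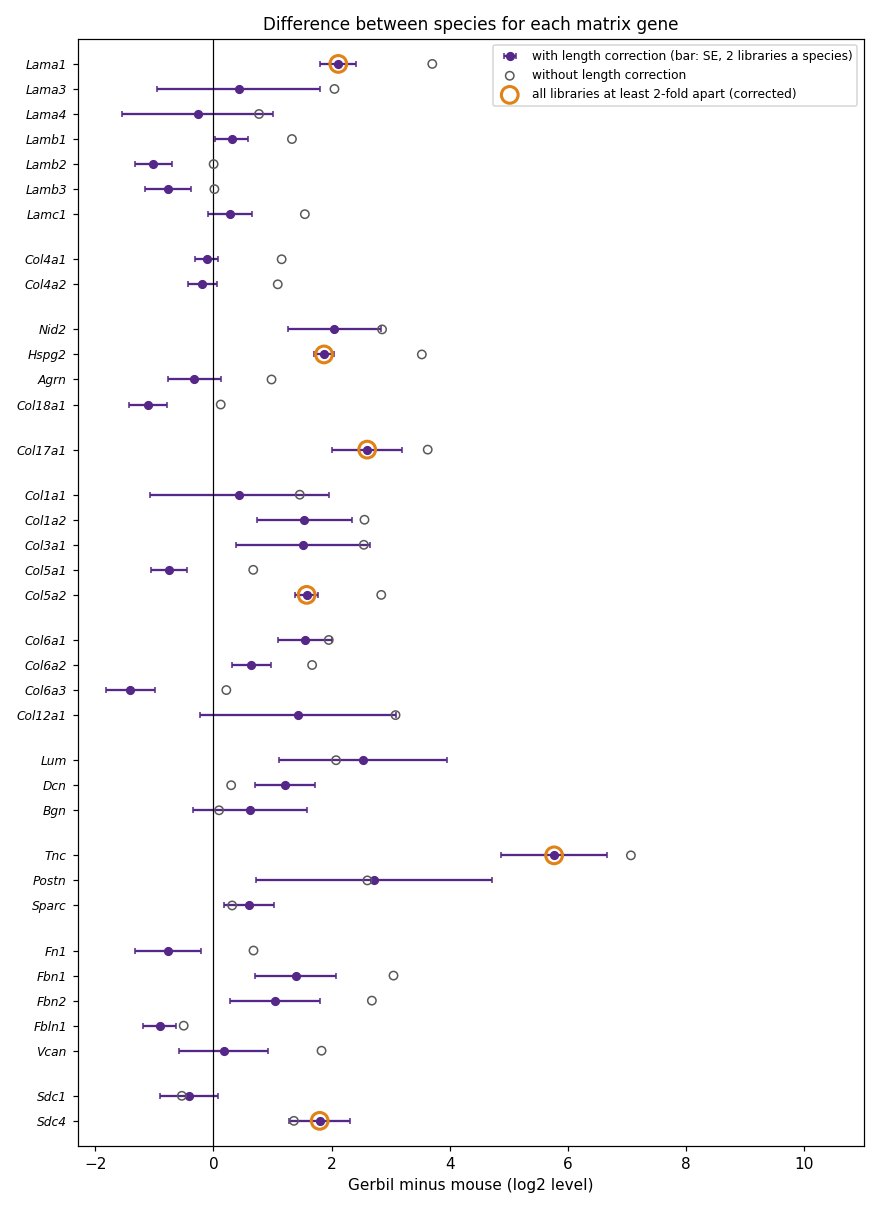
Gerbil minus mouse log2 level for each of the 36 matrix genes (x axis), with the length correction (filled, bar SE, n = 2 libraries a species) and without it (open); rings mark the 6 genes with all libraries at least 2-fold apart after correction. Tnc lies at 5.76, and most open points lie to the right of the filled ones.

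The 6 calls higher in gerbil held when each library was left out in turn, while other calls came and went. Leaving out a library cannot narrow the gap between nearest libraries, apart from shifts in centring and length trend. That the 6 held was therefore largely fixed by the rule and is no check of them. Without gerbil E21, 13 of the 36 were called higher in gerbil and 2 higher in mouse, beside backgrounds of 17.5% and 19.1%. Without mouse SEK the counts were 14 and 3, beside 17.5% and 19.8%. Without gerbil E23 they were 7 and 3, beside 16.6% and 18.8%, and leaving out mouse PEK gave 7 and 0, beside 19.2% and 20.6%. With 3 libraries the rule is easier to meet, as the backgrounds show.

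The 2 libraries of a species also differed from each other, and here each comparison is 1 library against 1, with no replicate check. In gerbil, 10 of the 36 genes were at least 2-fold higher in E23 than in E21 on the corrected scale and 1 was at least 2-fold lower, while 6.01% and 3.63% of all genes were. The 10 were Lama3, Lama4, Col1a1, Col3a1, Col12a1, Lum, Bgn, Postn, Fn1 and Fbn2, and the 1 was Tnc. Postn differed by 3.93 on the log2 scale, Lama4 by 2.52, Lum by 2.27, Lama3 by 2.09 and Col12a1 by 1.89. In mouse, 8 of the 36 were at least 2-fold higher in SEK than in PEK and 4 at least 2-fold lower, beside 7.49% and 8.48% of all genes. Those higher were Nid2, Col1a1, Col1a2, Col3a1, Col12a1, Lum, Dcn and Fbn2. Col12a1 differed by 2.73, Col1a1 by 2.63, Col3a1 by 2.01 and Lum by 1.71. Lama3 (-1.82), Vcan (-1.51), Bgn (-1.42) and Sdc4, just past 2-fold, were the 4 lower in SEK. Without the length correction the gerbil counts were again 10 and 1, beside 5.82% and 3.73% of all genes, and the mouse counts were 6 and 7, beside 8.50% and 11.6%.

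A set of 5 collagen, proteoglycan and fibrillin genes was past 2-fold in both species, higher in E23 and in SEK. These were Col1a1, Col3a1, Col12a1, Lum and Fbn2, which is 5 of 36 beside 1.60% of all genes. Without the length correction they were 4, Fbn2 dropping out, beside 1.57%. Lama3 and Bgn were past 2-fold in opposite directions, higher in gerbil E23 and lower in mouse SEK. Opposite directions of either kind were seen for 0.949% of all genes. The type IV collagen genes stayed within 2-fold: Col4a1 differed by 0.39 in gerbil and -0.04 in mouse, and Col4a2 by 0.41 in gerbil and 0.27 in mouse.

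Markers of other cell types differed between the same libraries. Over all genes, 6.01% were at least 2-fold higher and 3.63% lower in E23, and 7.49% higher and 8.48% lower in SEK. Endothelial markers summed to 189 in gerbil E23 and 41.5 in E21, where Emcn and Esam were listed at 0, and 6 of the 8 kept were at least 2-fold higher in E23, with a median log2 difference of 4.12. In mouse they summed to 222 in SEK and 116 in PEK, and 6 of 8 were at least 2-fold higher in SEK (median 1.14). Bone and cartilage markers summed to 618 in gerbil E23 and 608 in E21, and to 415 in mouse SEK and 125 in PEK, with 5 of the 6 kept at least 2-fold higher in SEK and Acan and Matn1 listed at 0 there. Spp1, which encodes osteopontin, was at 51.4 in mouse SEK and 2.89 in PEK. Runx2, the 1 kept marker of that list at least 2-fold lower in SEK, was at 8.40 in SEK and 45.8 in PEK (-1.61). Muscle markers summed to 62.7 in gerbil E23 and 33.9 in E21, where Mylpf and Myod1 were listed at 0, and to 769 in mouse SEK and 150.4 in PEK, led by Mylpf. Of the 13 mesenchyme markers, 0 were at least 2-fold higher and 3 lower in E23 than in E21 (median 0.10), and 0 were higher and 6 lower in SEK than in PEK (median -0.93). Picked out after the values were seen, Pdgfra was higher in both E23 (0.84) and SEK (0.87), within 2-fold. Others went opposite ways in the 2 species. Prrx1 (0.76 and -1.70), Prrx2 (0.62 and -0.48), Lhx8 (0.63 and -2.81) and Pdgfrb (0.51 and -2.21) were among those higher in E23 and lower in SEK. Barx1 (-1.13 and 0.96) was lower in E23 and higher in SEK. Of the 11 enamel knot markers, 0 were at least 2-fold higher and 2 lower in E23 (median -0.23), and 0 were higher and 5 lower in SEK (median -0.87). Bmp2 (-1.50 and -3.98) and Dkk4 (-2.25 and -2.66) were lower in both E23 and SEK. Blood and immune markers summed to 49.8 in gerbil E23 and 18.9 in E21, with 3 of 7 at least 2-fold higher in E23, and to 30.2 in mouse SEK and 153 in PEK, with 3 higher and 3 lower in SEK. The part of these markers in the collagen, Postn and Lama4 differences was not tested.

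**Figure D4:**
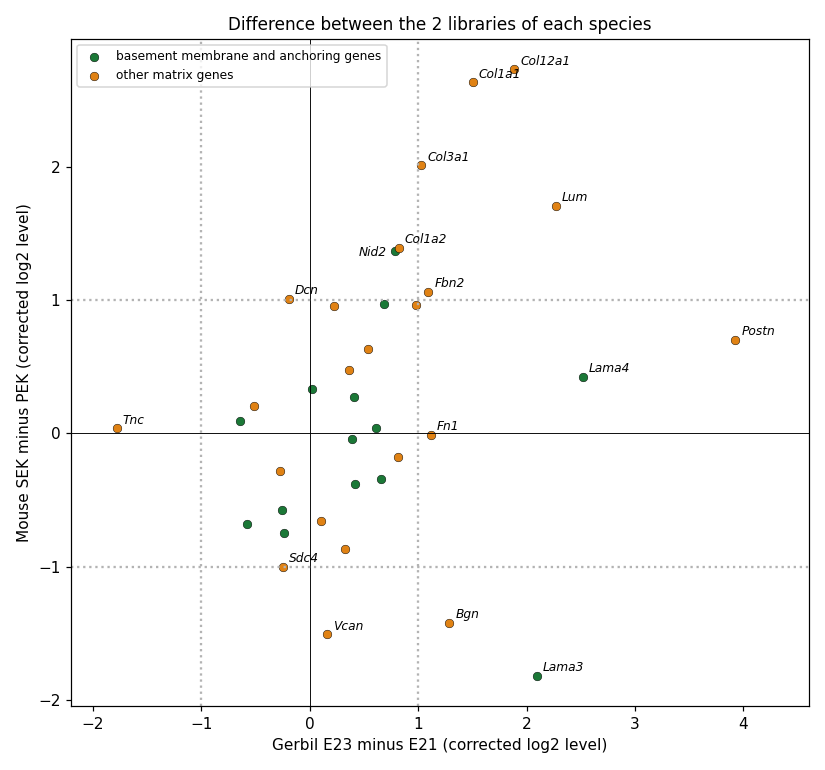
Corrected log2 difference between the 2 libraries of each species for the 36 matrix genes, gerbil E23 minus E21 (x axis) against mouse SEK minus PEK (y axis), with dotted lines at 2-fold. Col1a1, Col3a1, Col12a1, Lum and Fbn2 lie past 2-fold on both axes, while Tnc (-1.78 in gerbil, 0.04 in mouse) lies to the left.

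Ratios between chains inside a library do not depend on the scaling between tables, and they are given on levels without the length correction. A length trend that differs between tables still enters them where the chains differ in transcript length. Of the 10 pairs with values in all libraries, 3 had a highest ratio within 1.5 times the lowest, and for Col6a1 to Col6a2 this ended on length-corrected levels. Col4a1 to Col4a2 was 1.42 and 1.50 in gerbil E23 and E21 and 1.25 and 1.57 in mouse SEK and PEK. Lamc1 to Lamb1 was 1.09 and 0.961 in gerbil E23 and E21 and 0.833 and 0.921 in mouse SEK and PEK. On length-corrected levels these ratios lay between 1.24 and 1.55 for the type IV collagen pair and between 0.866 and 1.03 for the laminin pair. Col6a1 to Col6a2 was 1.15 and 0.971 in gerbil E23 and E21 and 0.870 and 0.863 in mouse SEK and PEK. The exon-union lengths of that pair are 4100 and 6008 bases. On levels corrected with them the ratio moved to 1.42 and 1.22 in gerbil E23 and E21. It was 0.652 and 0.754 in mouse SEK and PEK, so the species lay further apart. With the longest transcript as length, the Col6a1 difference was 1.38 and that of Col6a2 was 0.88, in place of 1.55 and 0.64. The ratios were not recomputed with that length.

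The other pairs varied more. Lamb1 to Lamb2 was 2.46 and 1.56 in gerbil E23 and E21, against 0.830 and 0.726 in mouse SEK and PEK, without overlap. The mouse Lamb2 locus also spans Usp19 on the same strand, so the mouse ratio is uncertain. Lamb3 to Lamb1, a laminin-332 chain over the common beta chain, was 0.475 and 0.722 in gerbil E23 and E21 and 1.3 and 1.66 in mouse SEK and PEK. Col1a1 to Col1a2 was 0.891 and 0.579 in gerbil E23 and E21 and 2.45 and 0.968 in mouse SEK and PEK. Type I collagen has more alpha 1 than alpha 2 chains, and only mouse SEK had a ratio above 1. Col3a1 to Col1a1 was 1.28 and 1.74 in gerbil E23 and E21 and 0.561 and 0.877 in mouse SEK and PEK.

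Lama5, encoding the alpha chain of laminin-511, a major laminin of mouse epithelia, did not meet the symbol rule, but 1 gerbil row without a symbol was described as laminin subunit alpha 5. That row was at 219 and 363 in gerbil E23 and E21, and the mouse gene was at 157 and 509 in mouse SEK and PEK. On these values, found after the tables were examined, Lama5 made up 53.7% and 83.8% of the summed Lama1, Lama3, Lama4 and Lama5 levels in gerbil E23 and E21, and 95.1% and 95.4% in mouse SEK and PEK. The Lama1 to Lama5 ratio was 0.294 and 0.120 in gerbil E23 and E21, against 0.00679 and 0.00503 in mouse SEK and PEK.

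**Figure D5:**
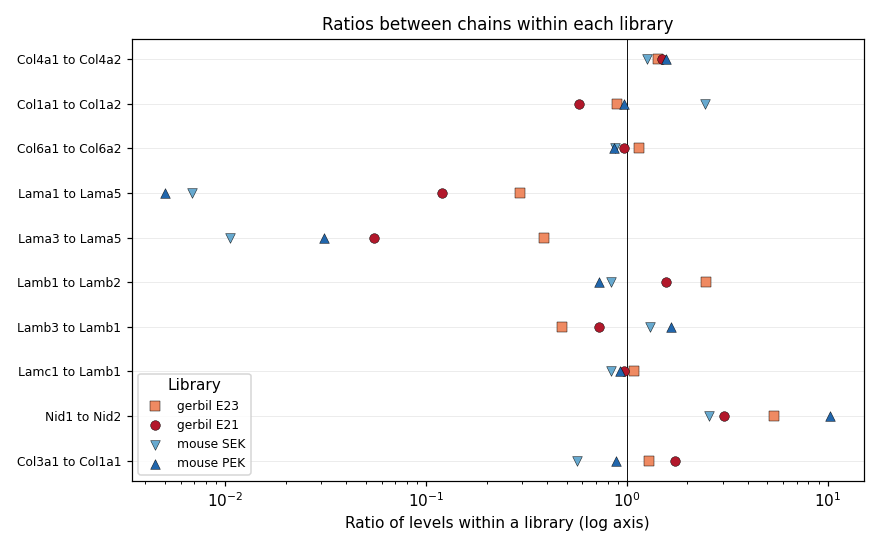
Ratio between the levels of 2 chains within each library (x axis, log scale, without length correction) for the 10 pairs with values in all 4 libraries. Col4a1 to Col4a2, Col6a1 to Col6a2 and Lamc1 to Lamb1 lie near 1 on these levels (Col6a1 to Col6a2 spread from 0.652 to 1.42 with the correction), while Lama1 to Lama5 lies to the right in gerbil (0.120 or more) of its place in mouse (0.00679 or less).

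Genes that build, cut or bind the matrix gave calls in both directions. Over all genes kept, 13.5% were called higher in gerbil and 15.0% higher in mouse. Of 22 other interstitial matrix genes kept, 6 (27.3%) were called higher in gerbil and 2 (9.09%) higher in mouse (median 0.62). Omd, encoding the small proteoglycan osteomodulin, was at 112 and 36.1 in gerbil E23 and E21 and at 3.31 and 1.43 in mouse SEK and PEK (4.33 ± 0.90). Efemp1 (3.81 ± 0.82), a fibulin family gene, was also higher in gerbil, while Fbln2 (-1.46 ± 0.23) and Eln, the elastin gene (-1.85 ± 0.73), were called higher in mouse only with the length correction. Of 14 other basement membrane genes, 1 (7.14%) was called in each direction (median -0.07). Dag1, the gene for the laminin receptor dystroglycan, was higher in gerbil (1.24 ± 0.14), and Hmcn1, encoding hemicentin 1, was higher in mouse (-2.45 ± 0.44), a call that ended without the length correction (-0.80).

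Of 20 genes for collagen folding, modification and processing, 3 (15%) were called higher in gerbil and 0 higher in mouse (median 0.48). The shares over all genes were 13.5% and 15.0%. Colgalt2, a collagen galactosyltransferase gene, was at 85.3 and 17.0 in gerbil E23 and E21 and at 0.0370 and 0.826 in mouse SEK and PEK (3.83 ± 1.18). Ppib, encoding the prolyl isomerase cyclophilin B, was higher in gerbil too (2.39 ± 0.12), but not called without the length correction (0.48). Among 18 proteases and inhibitors, 2 (11.1%) were called higher in gerbil and 3 (16.7%) higher in mouse (median -0.25), close to the shares over all genes. Reck, whose product is a membrane-anchored protease inhibitor, was higher in gerbil (2.34 ± 0.36), and Timp1 was too (1.76 ± 0.15, and -0.16, not called, without the correction). Mmp23 (-1.92 ± 0.45) and Adamts4 (-2.33 ± 0.67) were higher in mouse, and the Adamts4 call ended without the correction (-1.54). None of the 8 other receptors and cell surface proteoglycans was called (median 0.49).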

How the data were processed

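Laser-captured enamel knots of 2 gerbil and 2 mouse samples were sequenced after SMARTer amplification, per the labels' protocols. The tools listed, without roles, in the submitters' processing notes are RSEM 1.3.1, STAR 2.7.1a and cutadapt 2.8, and the builds listed are GRCm38 and mm10. No gerbil build is stated there. The authors deposited gerbil TPM for 25745 genes, per the file headers, and mouse FPKM for 27632 assembled loci. Another 4 per-sample gerbil columns were not used. Columns name the species but no sample number.

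Genes with 1 row per table and the same symbol were matched (13321), leaving out LOC, Gm and Rik names, and each library was rescaled to 1000000. A gene with a length in GENCODE M21 was kept where its level, averaged over the 4 libraries, reached 1 (10327). Log2 values used a pseudocount of 1, and each library was centred on its median deviation. Its median deviation from the gene means, in 40 bins of exon-union length, was interpolated and subtracted. Differences are gerbil minus mouse, with SE from 2 libraries per species. A permutation of 2 against 2 libraries cannot give a two-sided p below 0.333, so no test was run. The procedure was tested on simulated data. Python 3.11.15, numpy 2.4.6 and pandas 2.3.3 were used. Promoter sequences are from RefSeq (GRCm38.p6), where 29 of the 41 members had a window.

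The members, lists and length correction were chosen with earlier results of these data known. All measured members are named, with 2 called genes per direction from each other list, by the widest gap between nearest libraries. Alternatives changed the pseudocount, filter, length measure, bins, GC content, centring, fold and libraries.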

Additional observations from a re-analysis of the deposited data

How the results depend on the processing

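None of the 6 called members changed sign under the alternatives that kept it. The settings of any gap and of a 4-fold gap leave the differences as they are, so no sign could change there. Without the length correction, 10 of the members that were not called had the other sign. The count of members higher in gerbil was 13 with levels left uncorrected for length and 21 with centring dropped as well, beside 18.5% and 29.4% of all genes. It was 15 with any gap and 1 with a 4-fold gap, beside 37.2% and 3.14%. It was 3 of 27 with a mean level of at least 10 in each species, beside 10.2%. That filter drops Tnc, Lama1, Hspg2 and Col17a1 for their low mouse levels. With no filter on low values the count was 8, beside 12.6%, and with a pseudocount of 0.1 it was 7, beside 15.0%. The count higher in mouse was 7 with any gap (Lamb2, Lamb3, Col18a1, Col5a1, Col6a3, Fn1 and Fbln1), beside 37.3% of all genes. It was 1 with a pseudocount of 0.1 (Col6a3), beside 16.3%. The members had a median difference of 1.50 with levels left uncorrected for length, and of 2.12 with centring dropped as well. Leaving out 1 library gave 7 to 14 members higher in gerbil, 0 to 3 higher in mouse, and a median between 0.23 (without gerbil E23) and 1.14 (without gerbil E21). Without the length correction 7 members were at least 2-fold lower in mouse SEK than in PEK, beside 11.6% of all genes. With GC content also removed, 8 members were called higher in gerbil, beside 11.5% of all genes. The 6 were kept with 20 length bins and with the longest transcript as length, beside 13.5% and 12.9%. Of 28 chain ratios recomputed on length-corrected levels, over the 7 pairs without Lama5 or Nid1, 6 moved by more than the SD between the 2 libraries of the species. These were Col6a1 to Col6a2 in all 4 libraries (0.652 to 1.42, ending its place within 1.5 times) and Lamc1 to Lamb1 in gerbil E21 (0.866) and mouse SEK (0.974). The causes of these shifts were not tested. No paired analysis was possible because the columns carry no replicate number. Depth could not be used to bound low values, such as those of Lama1 and Tnc in mouse.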

Other observations

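Of the members outside the symbol rule, Col7a1, which encodes the collagen of anchoring fibrils, was at 55.8 and 57.3 in mouse SEK and PEK. The X-linked pair Col4a5 and Col4a6, which encode further type IV collagen chains, was at 2.15 and 5.21 and at 0.299 and 0.361 in mouse SEK and PEK. Nid1, encoding the laminin-binding linker nidogen 1, was at 9.80 and 18.2 in mouse SEK and PEK. In gerbil, 2 rows without a symbol were described as nidogen-1, at 259 and 84.3 in E23 and E21 for the first and at 12.3 and 10.3 for the second. Summed over both rows, the Nid1 to Nid2 ratio was 5.41 and 3.05 in gerbil E23 and E21 and 2.56 and 10.3 in mouse SEK and PEK, so the species overlapped.

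The promoter windows of the 29 members in the RefSeq table held GGGCGG in 19 cases (65.5%), CCAAT in 11 (37.9%) and TATAAA in 3 (10.3%, Tnc, Col3a1 and Col17a1). Over all 32851 windows the shares were 32.7%, 33.8% and 12.4%. Members had 1 window each, at the most upstream start, while the full set was not reduced to 1 window a gene. The shares are therefore of unlike sets. These are counts of letters in mouse sequence and say nothing of the gerbil promoters.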
